A study of Sus scrofa domesticus with 4 samples.

Results

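Activin, inhibin and bone morphogenetic protein (BMP) signalling was examined through 8 genes in the anterior pituitary of gilts: the inhibin and activin subunits INHA, INHBA and INHBB, the antagonist FST, the receptor BMPR1B and the transducers SMAD2, SMAD3 and SMAD4. A probe was assigned to a gene when its RefSeq accession, without version, matched that gene in the NCBI table of pig genes. The rule found 16 probes of 6 genes among 43603 probes on the array, of which 5578 could be named. INHBB and SMAD2 had no probe by this rule and are not analysed here. Of the 16 probes 11 were bright enough to be tested, at least 1 for each of the other 6 genes.

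Both states were sampled on days 12 to 13, counted from the onset of estrus. The 4 pregnant gilts had been mated naturally and carried conceptuses, and the 4 cyclic gilts were staged by the look of their ovaries. All were mature Large White x Polish Landrace females of about 110 kg, and RNA of the anterior pituitary was used. Each of 4 two-colour arrays carried 825 ng of labelled cRNA from 1 gilt of each state, and the 8 gilts fill the 8 channels. The sample labels put pregnant RNA in Cy3 on arrays 1 and 3 and in Cy5 on arrays 2 and 4. Over probes measured on all arrays, log2 ratios of Cy5 over Cy3 had a Pearson r of 0.45 between arrays 1 and 3. Between arrays 1 and 2, whose dyes are swapped on the labels, r was -0.40. The written labelling protocol can be read as Cy3 for pregnant RNA throughout, and where this turns the sign of a value of the 6 genes, the value is given beside it.

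Activins are dimers of inhibin beta subunits that act through receptor serine kinases, and inhibin pairs the alpha subunit with a beta subunit and opposes them. The activated receptors phosphorylate SMAD2 and SMAD3, which enter the nucleus with the common partner SMAD4. In gonadotrophs, the pituitary cells that make follicle-stimulating hormone (FSH) and luteinising hormone, activin raises transcription of the FSH beta subunit, while follistatin, the product of FST, binds activin and blocks it. BMPs use related receptors, BMPR1B among them, and signal mainly through SMAD1, SMAD5 and SMAD9, again with SMAD4.

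The defining hormone genes of the anterior lobe were all measured, 7 of 7. Of the spots, 47.5% to 67.9% were well above background in Cy3 and 60.7% to 71.8% in Cy5, and 0 were saturated. Array 4 had a dim patch of 4355 spots, 9.94% of the array, drawn from where bright spots were lost. No tested probe of the 6 genes lies in it. Over the probes measured on all arrays the normalised level of array 4 exceeded the mean of the other arrays by a median of 0.26 log2 units. Comparisons between states therefore rest on the ratio within each array. That ratio compares 2 gilts on the same spot. There are 4 such pairs.

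SMAD3 was higher in the pregnant gilt on 4 of 4 arrays, and BMPR1B had the widest range of ratios of the 6 genes. By the brightest tested probe, INHA, INHBA, the antagonist FST and the partner SMAD4 had fitted log2 ratios between -0.09 and 0.13. The other tested probe of FST was fitted at -0.15, and the other SMAD4 probes between -0.27 and 0.15. Each of these probes had an interval that spans 0. None of the 11 tested probes passed the threshold of an adjusted p under 0.05 (limma, Benjamini-Hochberg over 21627 tested probes), where the share of all tested probes past it was 0%. At an unadjusted p under 0.05 limma listed 2 of the 11, SMAD3 and BMPR1B, which is 18.2% beside 18.1% of all tested probes. Both had the higher level in pregnancy, beside 10.4% of all tested probes, and 0 of 11 the lower, beside 7.62%. Of all probes listed at that p, 57.8% were higher in pregnancy, and 82.2% with median centring in place of loess. The fitted ratio was positive for 6 of the 11, beside 53.1%. A positive ratio on all arrays was found for 2 of 11 probes beside 14.6% of probes measured on all arrays, and a negative one for 1 of 11 beside 11.3%. The levels of pregnant and cyclic gilts overlapped for all 11 probes. Over all probes measured on 4 arrays they did not overlap for 3.3%. With 11 probes these shares were near those of the array as a whole.

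**Figure D1:**
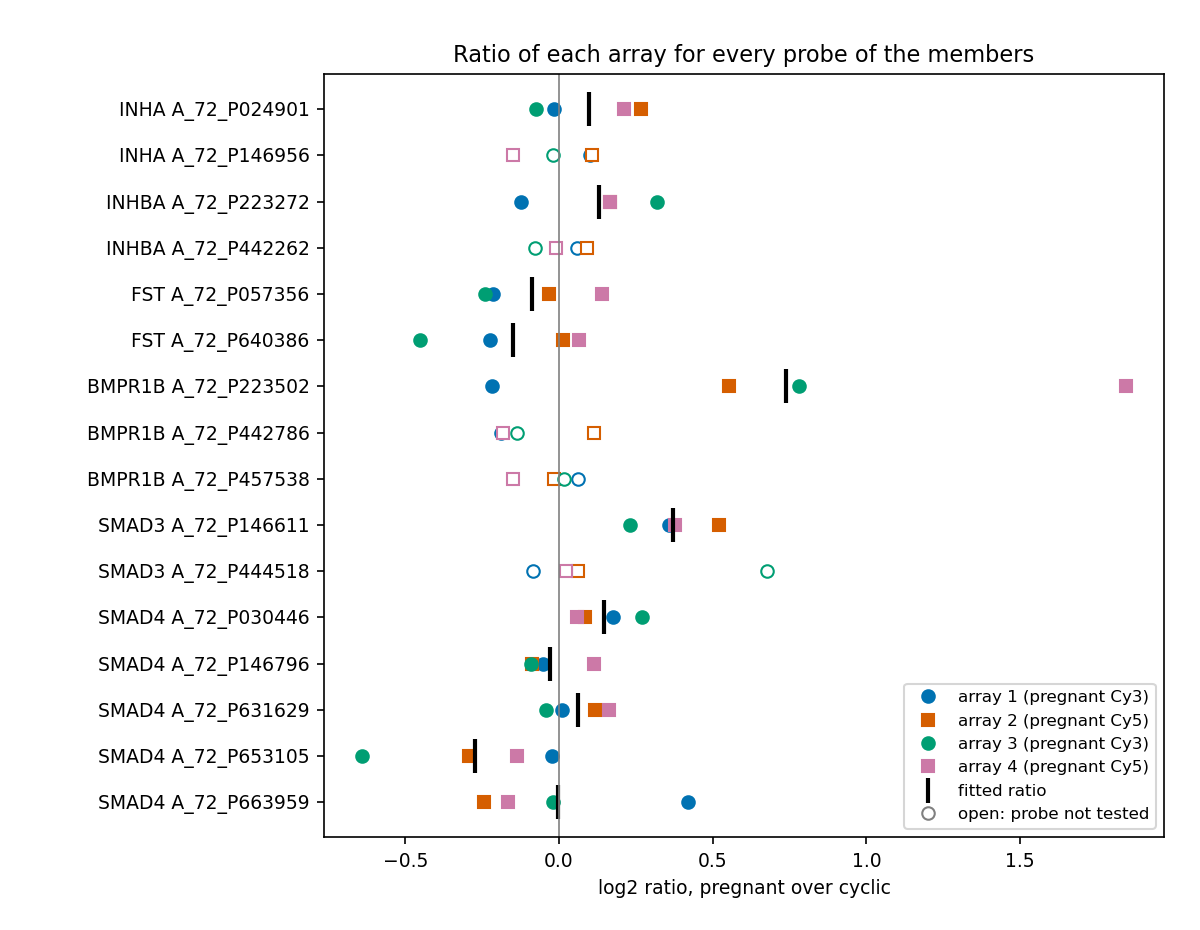
Log2 ratio of pregnant over cyclic on each of the 4 arrays (circles for pregnant RNA in Cy3, squares for Cy5) for the 16 probes, with the fitted ratio as a black bar and open symbols for the 5 probes not tested. SMAD3 A_72_P146611 lies between 0.23 and 0.52, and BMPR1B A_72_P223502 runs from -0.22 to 1.84.

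INHA encodes the alpha subunit that distinguishes inhibin from activin. Its brighter probe, A_72_P024901 (NM_214189), had normalised log2 intensities of 6.90, 6.98, 6.71 and 7.53 in the pregnant gilts of arrays 1 to 4. The cyclic gilts of the same arrays had 6.91, 6.71, 6.79 and 7.32. The states overlapped, and the pair on array 4 was the highest in both on this normalised scale. The log2 ratio of pregnant over cyclic was -0.02, 0.27, -0.07 and 0.21 on arrays 1 to 4, so it was positive where pregnant RNA was in Cy5 and slightly negative where it was in Cy3. The fitted ratio was 0.10 ± 0.17 (SD, n = 4), with a 95% interval of -0.10 to 0.29 and an adjusted p of 0.526 in limma. With pregnant RNA taken as Cy3 on all arrays it was -0.14. Dye and gilts cannot be told apart in such a split, since the arrays of each orientation hold other gilts. The second probe, A_72_P146956, was above background in 5 of the 8 channels and was not tested. Its ratios lay between -0.15 and 0.11.

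INHBA encodes the beta A subunit, which forms activin A as a dimer and inhibin A with the alpha subunit. The pregnant gilts had 10.05, 10.14, 9.82 and 10.96 for probe A_72_P223272 (NM_214028), and the cyclic gilts 10.18, 9.98, 9.50 and 10.79. Again the states overlapped. The normalised levels of array 4 were highest and those of array 3 lowest in each state. The unprocessed median signals of array 4 were 1962 in the pregnant and 718 in the cyclic gilt. Array 2, with the same dyes, had 2208.5 and 685. The ratio was positive on 3 arrays, at 0.16, 0.32 and 0.17 on arrays 2 to 4, and -0.12 on array 1. The fitted value was 0.13 ± 0.19 (SD, n = 4), with a 95% interval of -0.14 to 0.40 (limma adjusted p = 0.529), and with pregnant RNA taken as Cy3 throughout it was -0.034. The other probe of the same accession, A_72_P442262, was not above background in any of the 8 channels. The 2 probes thus disagreed on whether the transcript was present. The NCBI table does not list the INHBA entry as a protein-coding gene, so the name rests on the accession alone.

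FST encodes follistatin, which the gland is known to make in several of its cell types. The pregnant gilts had log2 intensities of 7.17, 7.18, 7.01 and 7.80 for probe A_72_P057356 (NM_001003662). The cyclic gilts had 7.38, 7.21, 7.25 and 7.66. The pregnant gilt was lower than its cyclic partner on arrays 1 to 3 and higher on array 4. The ratios were -0.21, -0.03, -0.24 and 0.14, fitted as -0.09 ± 0.18 (SD, n = 4) with a 95% interval of -0.29 to 0.12 (limma adjusted p = 0.594). The second FST probe, A_72_P640386, gave -0.23, 0.01, -0.45 and 0.06, fitted as -0.15 ± 0.24 with an adjusted p of 0.392 in limma. Both probes had their lowest ratios on arrays 1 and 3, where pregnant RNA was in Cy3, and were near or above 0 on arrays 2 and 4. Over arrays 1 and 3 the mean ratio of A_72_P057356 was -0.23, and over arrays 2 and 4 it was 0.05. The fits took this as dye effects of 0.14 and 0.19.

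BMPR1B, a type I receptor for BMPs, differed far more between gilts than the other genes. Probe A_72_P223502 (NM_001039745) had log2 intensities of 9.66, 8.78, 8.29 and 9.88 in the pregnant gilts. In the cyclic gilts it had 9.88, 8.23, 7.51 and 8.04. In normalised level the cyclic gilt of array 1 was as high as the highest pregnant gilt. The other 3 cyclic gilts were lower than all pregnant gilts. On array 4 the unprocessed median signals were 866 in the pregnant channel (Cy5) and 95 in the cyclic channel (Cy3), over backgrounds of 33 and 42. The unprocessed dyes are not on 1 scale. SMAD4 probe A_72_P146796, with a ratio of 0.11 on that array, had 3771 in Cy5 and 1380 in Cy3. On array 1 the order was opposite in the ratio, with both gilts high.

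The BMPR1B ratios were -0.22, 0.55, 0.78 and 1.84 on arrays 1 to 4. The value of array 4 was at the 99.9th percentile of probes on that array, and the value of array 1 at the 20.5th on its own. The fitted ratio was 0.74 ± 0.85 (SD, n = 4), 1.67-fold higher in pregnant gilts, with a 95% interval of 0.03 to 1.45. It had an unadjusted p of 0.0444 and an adjusted p of 0.268 in limma. Under alternatives with labelled dyes and all arrays, unadjusted p ran from 0.0266 (separate-channel fit) to 0.0603 (array weights) in limma. It was 0.0529 with median centring and 0.0562 without a dye effect in limma. Whether BMPR1B was listed at the threshold thus depended on the processing. The mean ratio was 0.28 on the arrays with pregnant RNA in Cy3 and 1.20 on those with Cy5. The fit took this as a dye effect of 0.46. Dye and gilts cannot be told apart here either. Without array 4 the fitted ratio was 0.42, and without array 2 it was 1.06. With pregnant RNA taken as Cy3 on all arrays it was -0.46. The SD over the arrays exceeded that of 98.6% of tested probes. The remaining probes for this accession, A_72_P442786 and A_72_P457538, were not above background in any channel, so the whole description of BMPR1B rests on 1 probe of 3.

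SMAD3 carries the activin signal from the receptors and can bind DNA itself. Probe A_72_P146611 (NM_214137) had log2 intensities of 8.50, 8.83, 8.65 and 9.09 in the pregnant gilts and 8.14, 8.31, 8.42 and 8.71 in the cyclic gilts. In normalised level only the cyclic gilt of array 4 exceeded a pregnant gilt, those of arrays 1 and 3. Within each array the pregnant gilt was higher, with ratios of 0.36, 0.52, 0.23 and 0.38. The fitted ratio was 0.37 ± 0.12 (SD, n = 4), 1.29-fold higher in pregnant gilts, with a 95% interval of 0.16 to 0.58. In limma its unadjusted p was 0.00642 and its adjusted p 0.235.

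The SMAD3 ratio had the same sign in both dye orientations and differed in size: its mean was 0.29 on the arrays with pregnant RNA in Cy3 and 0.45 on those with Cy5, where both values were above both of the former. Among all probes measured on 4 arrays, 1.55% had a lowest ratio at least as high as the 0.23 of SMAD3. Leaving out each array gave 0.34 to 0.41. A separate-channel fit of the 8 gilts, with a common correlation between both channels of a spot, gave the same 0.37. Its adjusted p was 0.0416 in limma, and it called 1046 probes in all. With pregnant RNA taken as Cy3 on all arrays the fitted value was -0.077. The second SMAD3 probe, A_72_P444518, was above background in 5 of 8 channels, lies in the dim patch of array 4 and was not tested. Its ratios were -0.08, 0.06, 0.68 and 0.02.

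SMAD4, the partner shared by activin and BMP signalling, was covered by 5 probes for 1 accession, NM_214072, all above background in the 8 channels. The brightest, A_72_P146796, had 10.64, 10.84, 10.85 and 11.85 in the pregnant gilts and 10.69, 10.93, 10.94 and 11.74 in the cyclic gilts. The pairs were nearly level on each array, and array 4 stood above the others in both states on this normalised scale. Its unprocessed median signals, 3771 for the pregnant and 1380 for the cyclic gilt, were near those of array 2. That array has the same dyes and had 3683 and 1327. The ratios were -0.05, -0.09, -0.09 and 0.11. Their fitted value was -0.03 ± 0.10 (SD, n = 4), with a 95% interval of -0.24 to 0.18 (limma adjusted p = 0.877). With median centring in place of loess it was 0.13, and without array 2 it was 0.021. On each array the ratio of SMAD3 was above that of this probe, by 0.41, 0.61, 0.32 and 0.27 log2 units. This did not hold for every SMAD4 probe. A_72_P663959 had 0.42 on array 1, where SMAD3 had 0.36, and A_72_P030446 had 0.27 on array 3, where SMAD3 had 0.23.

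The other 4 SMAD4 probes did not share a direction. A_72_P030446 was positive on all arrays, between 0.06 and 0.27, and was fitted at 0.15 (limma adjusted p = 0.365). A_72_P653105 was negative on all arrays, between -0.64 and -0.02, and was fitted at -0.27 (limma adjusted p = 0.327). Their 95% intervals were -0.05 to 0.35 and -0.60 to 0.06, so each reached past 0. Without array 1 the value of A_72_P653105 was -0.43 with an adjusted p of 0.0391 in limma, in a fit that called 3381 probes, and without array 3 it was -0.12 with an adjusted p of 0.567 in limma. A_72_P631629 was fitted at 0.06 and A_72_P663959 at -0.0024, the latter with 0.42 on array 1 and -0.25 on array 2. Their signs turned with pregnant RNA taken as Cy3 throughout, to -0.079 and 0.20. The sign of a SMAD4 ratio thus depended on the probe, and the 5 fitted values span -0.27 to 0.15. A_72_P631629 also stood apart, with a level on array 4 minus the mean of the other arrays of -1.25 log2 units. The remaining 10 tested probes of the 6 genes were 0.24 to 1.01 higher on that array.

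**Figure D2:**
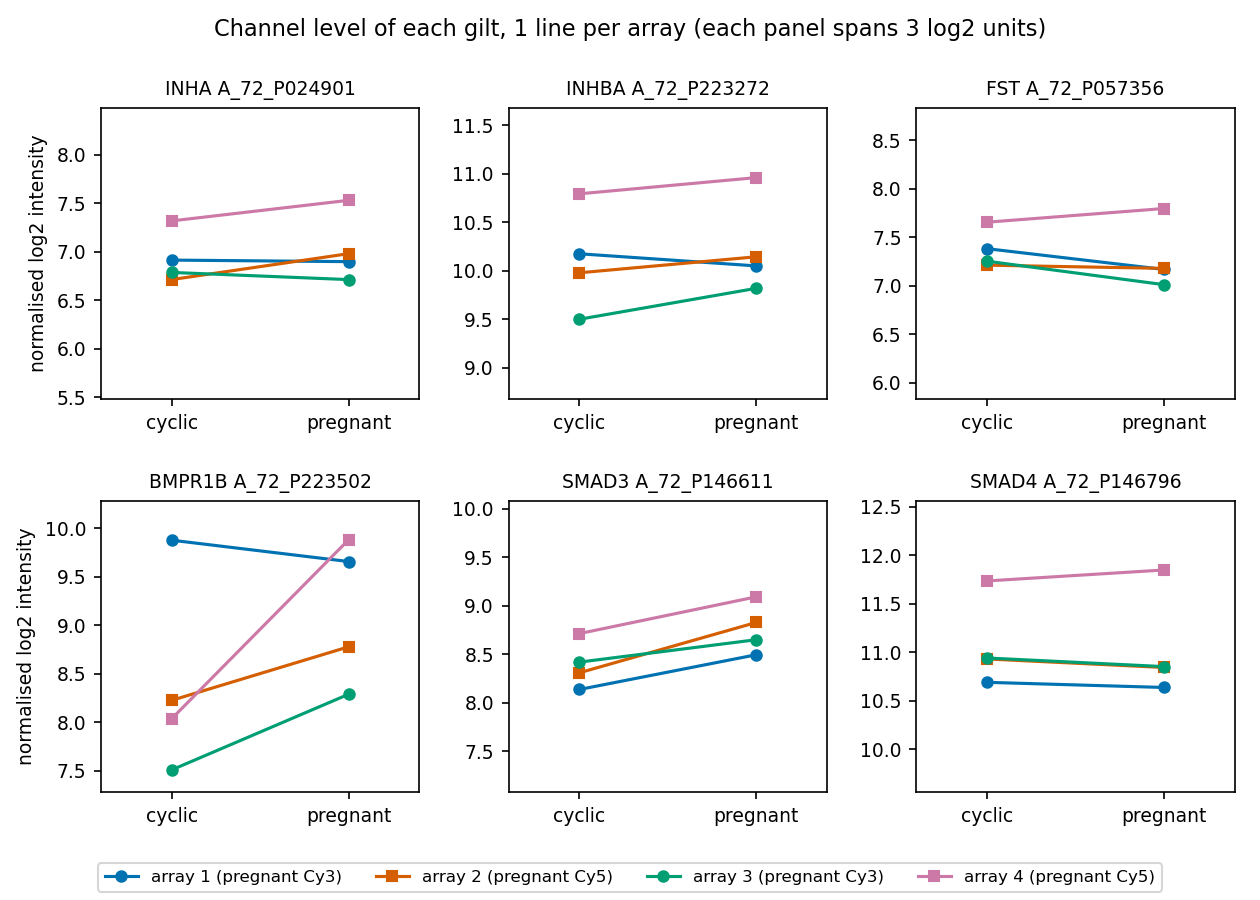
Normalised log2 intensity of the cyclic and the pregnant gilt of each array, joined by a line, for the brightest tested probe of each of the 6 genes. All 4 lines slope up toward the pregnant gilt for SMAD3, while for BMPR1B 3 slope up and that of array 1 goes from 9.88 down to 9.66.

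The spread between gilts of the same state also differed among the genes. The within-state SD of BMPR1B was 0.90 log2 units, at the 96.0th percentile of probes measured on all arrays, where the median was 0.28. INHBA and the brightest SMAD4 probe had 0.52 and 0.50. INHA, FST and SMAD3 had 0.31, 0.28 and 0.25. The high normalised level of array 4 in both channels enters these values. The unprocessed signals given above for INHBA and SMAD4 did not show it to that extent. The spread of the ratio leaves it out. There the brightest SMAD4 probe and the SMAD3 probe were among the steadier, at 0.10 and 0.12 beside a median of 0.22 over the probes. SMAD4 probes A_72_P653105 and A_72_P663959 were above that median, at 0.27 and 0.30, and A_72_P030446 and A_72_P631629 were at 0.10. BMPR1B remained wide by this measure as well, at 0.85.

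Among 1489 other named genes measured on all arrays, those whose intensity over the 8 channels was most like that of BMPR1B were SLC22A4 (Pearson r = 0.965), LIPE (0.944) and MADCAM1 (0.887). For SMAD3 they were KCNJ5 (0.963), SPINK4 (0.926) and IL6ST (0.925). INHA was nearest to TNNI2, LALBA and MCT7, and INHBA to PABPC1, IDE and DNASE1. FST was nearest to ALDH2, LTA and SLC22A6, and SMAD4 to MARCH5, RFLNA and ITGAV. The r of these 12 genes lay between 0.970 and 0.985. The 8 channels come from 4 arrays and channels of 1 array share their spots, so for the genes highest on array 4 the likeness follows the array in part. The values are a description of these channels.

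The rest of the pathway was followed with a list of 95 genes, of which 32 had a named probe and 28 a tested one. Of the 28, 13 had a positive and 15 a negative fitted ratio, with a median of -0.02. Over all named genes the positive share was 43.8% and the median -0.02, so the list lay where named genes lay in general. None of the 28 passed at an adjusted p under 0.05 in limma. At an unadjusted p under 0.05 limma listed 4, SMAD3 and BMPR1B with positive and ENG and GDF9 with negative ratios, beside 13.8% of all named genes.

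Of 9 measured ligands 5 were positive and 4 negative. Beside the inhibin subunits, GDF9, best known as an oocyte factor, had a fitted ratio of -0.42 ± 0.31 (SD, n = 4), negative on all arrays (limma adjusted p = 0.237). TGFB1, the prototype of the family, had -0.17 ± 0.15 (SD, n = 4) and an adjusted p of 0.388 in limma. BMP7, which shares receptors with other BMPs, had 0.06 ± 0.26. Among the 13 antagonists that bind ligands, FST and DCN alone were measured, and DCN, a matrix proteoglycan that binds TGF-beta, had 0.22 ± 0.54 (SD, n = 4).

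The 6 measured receptors and co-receptors split 3 to 3. ENG, a TGF-beta co-receptor of endothelial cells, was the lowest of these 6 at -0.35 ± 0.35 (SD, n = 4), with a negative value on every array (limma adjusted p = 0.235). TGFBR3, betaglycan, which lets inhibin compete with activin at the type II receptors, had 0.11 ± 0.23. ACVR2B, an activin type II receptor, had -0.04 ± 0.03, and ACVR1, a type I receptor, -0.02 ± 0.23 over 3 arrays. Of the SMADs, SMAD1 was also measured. This BMP transducer had -0.30 ± 0.49 (SD, n = 4), the opposite sign to BMPR1B, with -0.84 on array 3 and 0.33 on array 4 (limma adjusted p = 0.316). None of the 9 listed inhibitors inside the cell, such as SMAD6 and SMAD7, had a named probe.

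Among 8 measured targets and gonadotroph partners 3 were positive and 5 negative. FSHB, the FSH beta subunit and the best known activin target of the gland, had -3.36, -1.99 and -0.32 on arrays 2 to 4 and was left out on array 1 as an outlier of the scan software. Its fitted ratio was -1.91 ± 1.52 (SD, n = 3), and its adjusted p was 0.279 in limma. GNRHR, the receptor of gonadotropin-releasing hormone, was positive on all arrays at 0.43 ± 0.43 (SD, n = 4; limma adjusted p = 0.292). The BMP target genes ID2 and ID4 had -0.26 ± 0.50 (SD, n = 3) and -0.12 ± 0.24. With pregnant RNA taken as Cy3 on all arrays, 14 of the 28 measured genes of the list had the other sign, 4 of them INHA, INHBA, BMPR1B and SMAD3. Of the others described above, FSHB was then 0.56, ID2 0.26, ID4 0.16, ACVR1 0.18, ACVR2B 0.0035, TGFBR3 -0.16 and DCN -0.035.

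**Figure D3:**
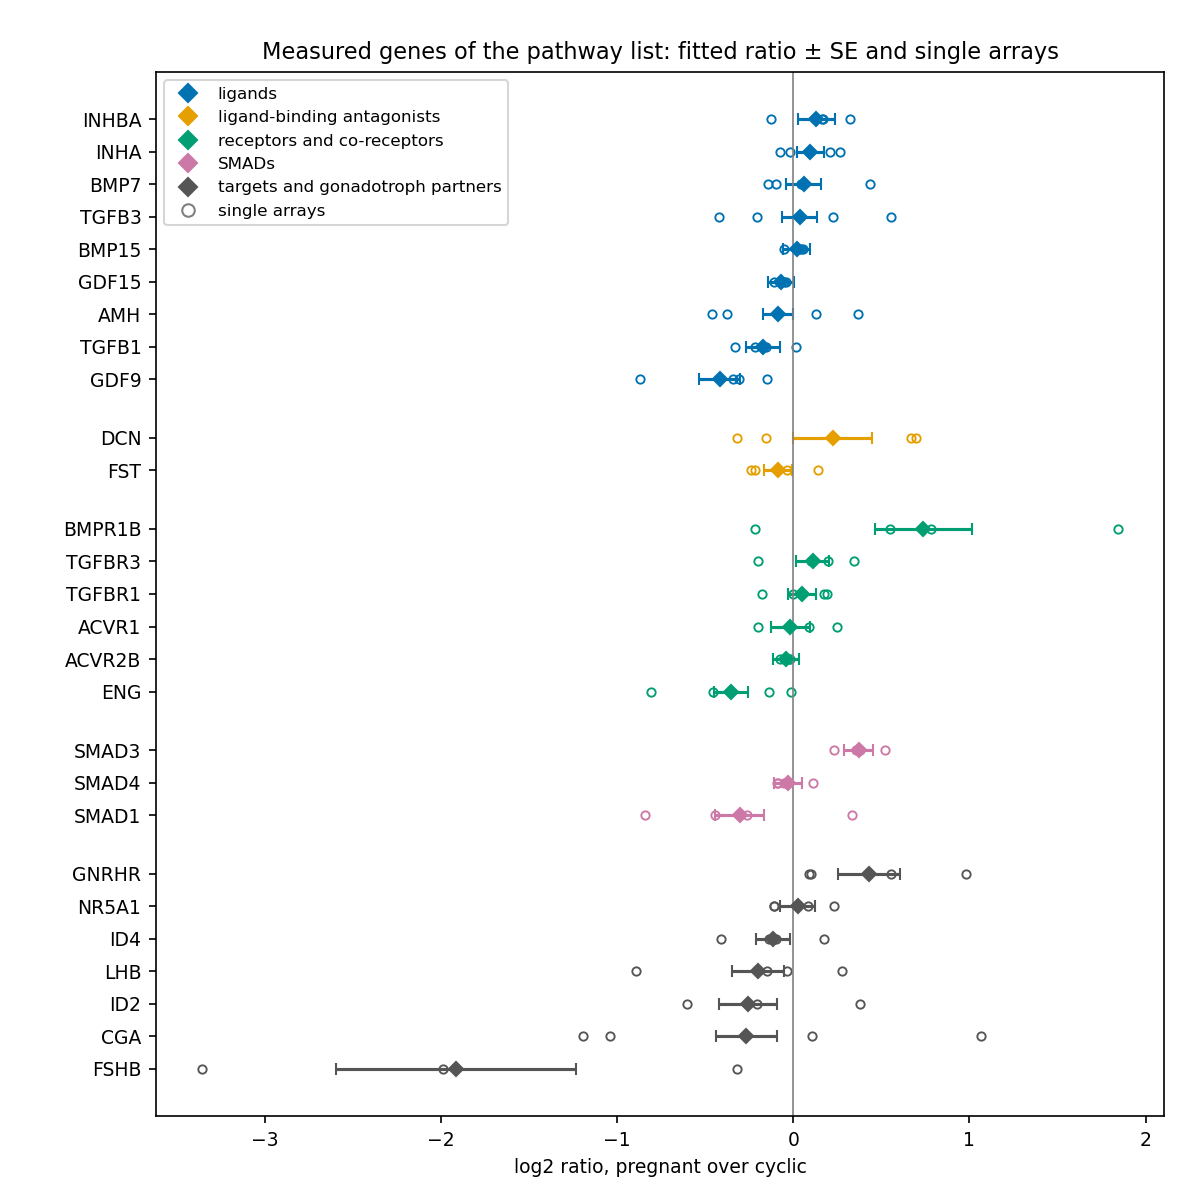
Fitted log2 ratio of pregnant over cyclic with its SE (diamonds and bars) and the ratio of each array (open circles) for 27 of the 28 measured genes of the pathway list, grouped by role. BMPR1B at 0.74 is the highest and FSHB at -1.91 the lowest fitted ratio.

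In whole-gland RNA, fewer cells of a type and less RNA per cell cannot be told apart. Markers of the cells that could hold these transcripts were set beside them. Of 7 hormone genes 6 had a negative ratio, where 43.8% of all named genes had a positive one. PRL, at -0.89 ± 0.83 (SD, n = 4), was 1 of the 6. It was the only hormone gene lower at an unadjusted p under 0.05 in limma (adjusted p = 0.235), beside 7.62% of all tested probes. GH1 at -0.0078 ± 2.05 and TSHB at -0.015 ± 4.66 (SD, n = 4) lay near 0 and varied widely over the arrays. POMC was positive at 0.16, but its probes ran from -0.26 to 0.16. The count of 6 thus does not show a common fall. Of 5 measured gonadotroph markers, from a list of 6, 3 were negative. The mean ratio of the 5 was -0.52, -0.57, -0.42 and 0.27 on arrays 1 to 4. FSHB, at -3.36 and -1.99 on arrays 2 and 3, weighs on these means and is absent from that of array 1. The other markers lay between -0.11 and 0.55 on array 2 and between -1.04 and 0.98 on array 3. These lists share FSHB, LHB and CGA.

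Stromal and pericyte markers, which include DCN, were negative for 3 of 4 measured of 10. All 3 were lower at an unadjusted p under 0.05 in limma, beside 7.62% of all tested probes. They were ACTA2 at -0.36, SPARC at -0.62 and FBN1 at -0.30. The ACTA2 probe lies in the dim patch of array 4, and SPARC was measured on 3 arrays, without array 1. All tested probes of ACTA2 and SPARC were negative, while those of FBN1 ran from -0.30 to 0.11. The mean of the list was -0.06, -0.38, -0.45 and -0.01 on arrays 1 to 4. Endothelial markers, which include ENG, were negative for 3 of 4 measured of 10, with means of -0.0049, -0.25, -0.26 and -0.05. Of 12 markers of folliculostellate and stem cells 5 were measured and 4 of these were negative, with means of -0.07, -0.25, -0.07 and -0.13. Proliferation markers were negative for 5 of 5 measured of 10, with means of -0.05, -0.68, -1.42 and -0.05. The means of these 4 lists were below 0 on every array, though some were at -0.05 or nearer to 0. Not all cover the same genes on each array. SPARC and the folliculostellate marker ANXA1 are absent on array 1, and the folliculostellate marker KRT8 on array 4. Tested probes of the endothelial marker PECAM1 ran from -0.26 to 0.20, and those of the folliculostellate marker FGFR2 from -0.18 to 0.23. Of all named genes, 43.8% had a positive fitted ratio. Other lists had means above 0 on some arrays: hormones 0.28 and gonadotroph 0.27 on array 4, myeloid 0.45 on array 2. The posterior and intermediate lobe list had 0.41 on array 1. Myeloid markers were negative for 3 of 5 measured of 9, and posterior and intermediate lobe markers for 2 of 4 measured of 8.

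The summed levels of these markers, over genes measured on all arrays, ran from 12.16 to 12.57 log2 units in pregnant and from 12.08 to 12.66 in cyclic gilts for stromal and pericyte cells. The endothelial sums were 10.91 to 11.32 and 11.01 to 11.45, and the folliculostellate sums 10.54 to 11.47 and 10.74 to 11.72. The proliferation sums were 9.30 to 9.74 and 9.55 to 10.96, and the gonadotroph sums 17.22 to 18.02 and 17.22 to 18.35. Across gilts of different arrays the ranges of the states overlapped in each of these lists. Their part in the ratios of the 6 genes was not tested.

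**Figure D4:**
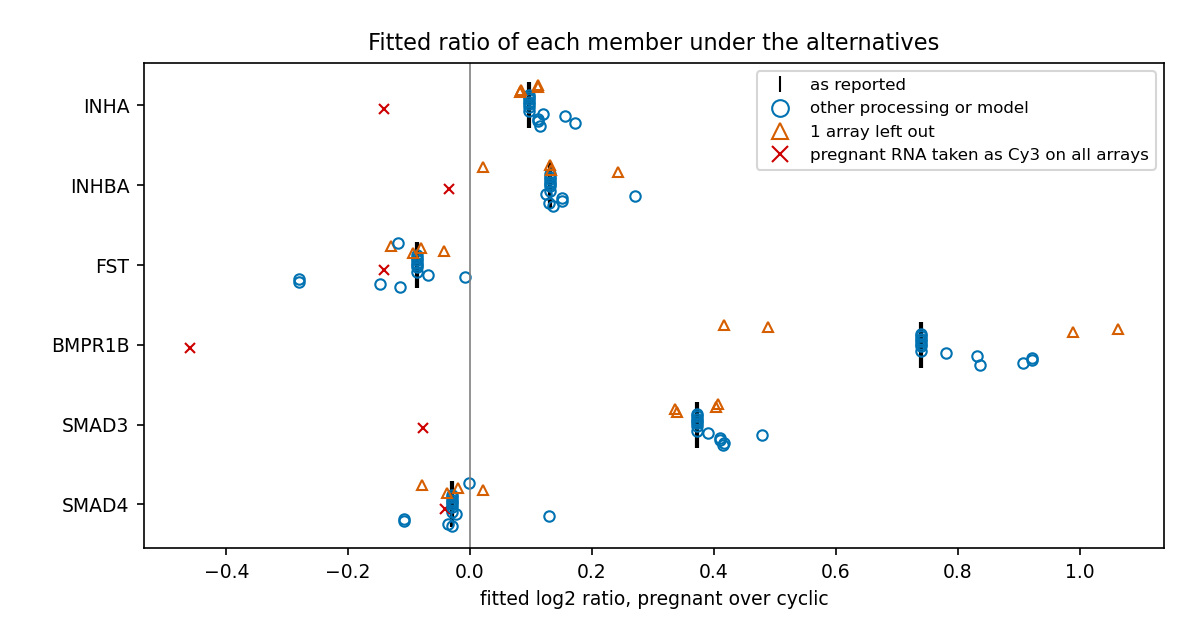
Fitted log2 ratio of the 6 measured genes as reported (black bars), under other processing or models (circles), with 1 array left out (triangles) and with pregnant RNA taken as Cy3 on all arrays (crosses). SMAD3 stays between 0.34 and 0.48 with the dyes as labelled, and lies at -0.077 when pregnant RNA is taken as Cy3 throughout.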

How the data were processed

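The members and gene lists were chosen with earlier results of these data known. Per the file headers, the deposited files hold Cy3 and Cy5 intensity for each spot and its local background, from Agilent Feature Extraction 10.7.3.1, its processed signals and a log10 ratio. The deposited value table holds log2 ratios that equalled those of the processed signals in size (r of 1 or -1) and ran pregnant over cyclic under the dyes on the labels. The medians of its columns for arrays 1 to 4 were 0.07, -0.08, -0.18 and -0.17, and how the authors centred them is unknown. Median signals were corrected by normexp (offset 50) and normalised by loess per array, control spots having weight 0. Outlier-flagged spots were left out and all ratios were written as pregnant over cyclic. Channel levels are log2 intensities after loess and Aquantile. Tests took probes with at least 3 unflagged arrays and, in 1 state or both, a signal well above background on every array. The model, an intercept and a dye effect, was run in limma 3.58.1 (R 4.3.3) with Benjamini-Hochberg adjustment and checked on simulated data. SD is over arrays. The brightest tested probe represents a gene. Named are all probes of the members, in each role of the pathway list the 3 genes with the smallest p, any further tested gene of it, and the 3 genes most correlated with each member; 1 target gene is counted in the list but not reported here. All arrays lie on 1 slide. The files state no genome build, so no coordinates are given, and probe sequences were not used here. Alternatives changed background, signals, normalisation, model, filter, dyes and arrays used.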

Additional observations from a re-analysis of the deposited data

Results flagged for a closer look

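Dixon's ratio was computed for 52 sets of 4 values, the ratios of the measured pathway genes and member probes and the levels of the member probes in each state. In 1 set an extreme sample stood apart; about 1 set in 20 does so by chance. It was the level of SMAD4 probe A_72_P030446 in the cyclic gilt of array 4, at 9.72 log2 units, against 8.57 to 8.71 in the other cyclic gilts. The pregnant gilt of that array had 9.78, and the ratio between them was 0.06. The height was thus shared by both channels of array 4, at 1.01 log2 units above the other arrays in normalised level. In unprocessed Cy3 signal the cyclic gilts had medians of 339 on array 4 and 264.5 on array 2. The flag is therefore on the normalised level of that array and not on this gilt alone.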

How the results depend on the processing

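With the dyes as labelled, INHA, INHBA, BMPR1B, SMAD3 and FST kept their sign under all 17 or 18 alternatives run, and of these SMAD3 alone passed in any. SMAD3 passed in the separate-channel fit of the 8 gilts, at 0.37. INHA ran from 0.08 to 0.17, INHBA from 0.02 to 0.27, FST from -0.28 to -0.0088 and BMPR1B from 0.42 to 1.06. With pregnant RNA in Cy3 on all arrays INHA was -0.14, INHBA -0.034, BMPR1B -0.46 and SMAD3 -0.077; by construction this turns arrays 2 and 4 and allows no dye effect.

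SMAD4 became 0.13 with median centring, and leaving out 1 array gave -0.079 to 0.021. Its probe A_72_P663959 became 0.10 with median centring, 0.20 with Cy3 throughout and -0.11 to 0.11 on leaving out 1 array. Probe A_72_P631629 became -0.0059 with the processed signals and with the value table, and -0.079 with Cy3 throughout. Probe A_72_P653105 passed without array 1, at -0.43 (limma adjusted p = 0.0391), and was -0.12 without array 3. The cause was not tested.

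The count of probes at an adjusted p under 0.05, 0 as reported, was 1 without background correction, 1 with a normexp offset of 0, 1 with array weights, 2 without a dye effect and 1046 in the separate-channel fit, and 0 to 3381 on leaving out 1 array, the highest without array 1. At an unadjusted p it was 3904 in limma, 2555 with median centring, 1118 with Cy3 throughout and 895 to 7061 on leaving out 1 array, the lowest without array 2 and the highest without array 1; it was 2026 without array 4. Median centring raised the share of higher ratios among these from 57.8% to 82.2%. Positive pathway genes numbered 10 to 17 over the alternatives.

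The fit as reported is paired by array, since each ratio sets 1 pregnant against 1 cyclic gilt. The separate-channel fit uses the levels of the 8 channels, with a correlation between both channels of a spot that is common to all probes. The INHA and FST probes have the lowest levels of the tested probes here, nearest to background.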
